A study of Mus musculus with 24 samples.

Results

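Liver RNA of chow-fed C57BL/6 male mice labelled Cyp2b-null was compared with that of chow-fed C57BL/6 wild-type (WT) males. The comparison holds 6 of the 24 libraries of the series, 3 labelled Cyp2b-null and 3 WT. These 6 were chosen by the column names of 1 deposited table of raw counts per gene symbol, without use of any measured value. The repeat of the comparison without labelled-null library 1 was set by a measured value, the mitochondrial share of that library. The labels give the null genotype as a loss of Cyp2b9, Cyp2b10 and Cyp2b13, and the feeding as 10 weeks of normal chow (ND). They do not say how the allele was made, how old the mice were, or whether each library came from 1 mouse. P-values therefore measure only the spread between these libraries, which may be technical. The series asks what role Cyp2b enzymes have in obesity caused by a diet with 60% fat (HFD), and it also holds males labelled Cyp2b-null and WT males on HFD, KO and WT females on ND, and KO and WT females on HFD, with 3 libraries each. Female groups follow the sample titles, because the genotype characteristic of 6 female libraries contradicts the title.

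The Cyp2b enzymes are cytochrome P450 monooxygenases of the endoplasmic reticulum that oxidise drugs, steroids and unsaturated fatty acids. In mouse liver Cyp2b10 is the classical target of the nuclear receptor CAR, while Cyp2b9 and Cyp2b13 are expressed mainly in females, under the sex-specific pattern of growth hormone. The genes sit side by side in a cluster of closely related Cyp2 genes, among them Cyp2a4 and Cyp2a5.

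Library 1 of the males labelled Cyp2b-null stood apart from the other 11 male libraries, and the calls and list counts are given with and without it. Transcripts of the mitochondrial genome took 32.8% of its 8282510 counts, against 7.13% and 3.51% in libraries 2 and 3 of the same group and 4.75% to 5.82% in the WT libraries. COX1, a mitochondrially encoded subunit of cytochrome c oxidase, was its most abundant transcript, whereas Alb, the albumin gene, was the most abundant in each of the other male libraries. Its Spearman correlation with the rest of the males had a median of 0.891, a figure that was 0.949 or more for each other male library. Summed hepatocyte markers (12 of 12 listed genes measured) reached 51169 counts scaled to library size (CPM) in library 1, 115630 and 109140 CPM in labelled-null libraries 2 and 3, and 143580, 160740 and 186220 CPM in the WT libraries. Hepatocyte transcripts were thus abundant in all 6, and the sums of the groups do not overlap. B cell markers summed to 149 CPM in library 1 and to between 4.98 and 13.2 CPM in the other 5, and adipocyte markers to 78.0 CPM against 5.36 to 13.9 CPM. Muscle markers summed to 107 CPM in library 1, against 7.06 to 16.3 CPM in the other 5. Of 8 B cell markers none was at 0 counts in all 6 libraries, of 8 adipocyte markers Lep and Slc2a4 were, and of 9 muscle markers Myh1 and Myh4 were. Liver endothelial markers summed to 611 CPM in library 1, against 291 to 346 CPM in the other 5, and T and NK cell markers to 14.9 CPM against 2.82 to 5.80 CPM. Stellate cell markers in library 1, at 268 CPM, lay within the 164 to 330 CPM of the other 5. Kupffer cell markers summed to 293, 454 and 194 CPM in the labelled-null libraries and to 257, 208 and 288 CPM in WT, with overlap. In bulk tissue, fewer cells of a type and less RNA per cell cannot be told apart. The part of these differences in the results below was not tested.

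**Figure D1:**
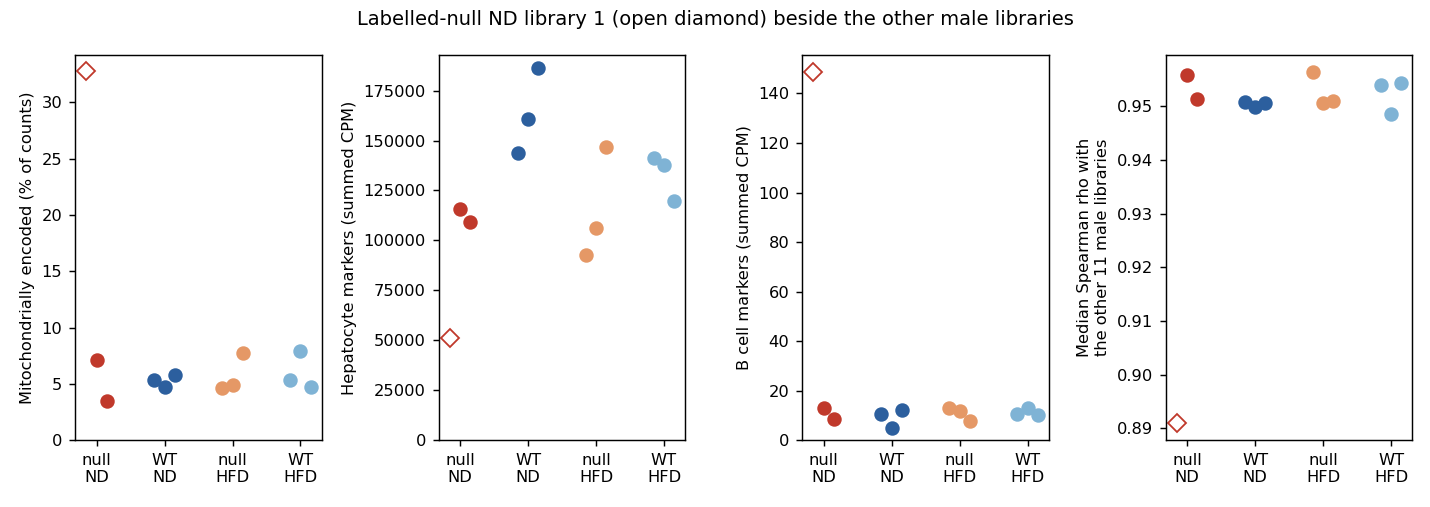
Each point is 1 male library, in the order labelled-null ND, WT ND, labelled-null HFD, WT HFD, and the open diamond is labelled-null ND library 1. The panels show the percentage of counts from the mitochondrial genome (32.8% in library 1), summed CPM of hepatocyte and of B cell markers (51169 and 149 CPM in library 1), and the median Spearman rho against the remaining 11 male libraries (0.891 in library 1).

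Of the targeted genes, Cyp2b9 and Cyp2b13 did not follow the label on ND. They lie within the Cyp2 cluster of chromosome 7 on the forward strand (GRCm38, GENCODE M21), where Cyp2b10 spans 25897620 to 25926624, Cyp2b13 spans 26061497 to 26096197, and Cyp2b9, the last of the protein-coding trio, spans 26173411 to 26210661. Cyp2b9 had 24, 29 and 59 counts in the labelled-null libraries, against 1, 2 and 4 counts in the WT libraries. It was thus higher in each library labelled as lacking it, although the log2 difference of 3.67 ± 0.997 (SE) did not pass the test (edgeR adjusted p = 0.192), nor did 3.58 ± 1.33 without library 1 (edgeR adjusted p = 0.222). Cyp2b13 had 7, 89 and 43 counts in the labelled-null libraries and 23, 31 and 33 counts in WT, so that its groups overlapped. Its log2 difference was 0.12 (95% interval -0.84 to 1.08) with all libraries and 0.49 (95% interval -0.18 to 1.16) without library 1. On ND, Cyp2b10 alone lay in the direction of the label, at 4, 15 and 15 counts in the labelled-null libraries and 97, 34 and 30 counts in WT. Its log2 difference was -2.60 ± 0.70 (edgeR adjusted p = 0.186) and, without library 1, -2.45 ± 0.72 (edgeR adjusted p = 0.140). With all libraries, Cyp2b9 passed in 1 of 14 alternative analyses (DESeq2 adjusted p = 0.00575). Cyp2b10 passed in 2 of 14 (DESeq2 adjusted p = 0.0170, limma voom with sample quality weights adjusted p = 0.02035). Without library 1, Cyp2b9 and Cyp2b10 each passed in 2 of 13, and Cyp2b13 passed in 0 of either set. The group is therefore called labelled Cyp2b-null throughout.

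Reads of these genes could be exchanged between paralogues, since the longest coding transcripts of Cyp2b9 and Cyp2b13 agree at 89.23% of 1903 aligned positions, those of Cyp2b9 and Cyp2b10 at 86.22% of 1887, and those of Cyp2b10 and Cyp2b13 at 85.53% of 1900. How shared reads were counted is not given in the sources used here. On HFD, Cyp2b9 stood at 2.03, 7.57 and 1.83 CPM in males labelled Cyp2b-null, against 26.6, 4.67 and 36.1 CPM in WT males, with overlapping groups. Its log2 difference on HFD was -2.58 (95% interval -4.13 to -1.03), in the direction of the label. That difference did not pass the test over all genes (edgeR adjusted p = 0.99983). For Cyp2b9 the difference on ND exceeded that on HFD by 6.24 (edgeR adjusted p = 0.602) and, without library 1, by 6.17 (edgeR adjusted p = 0.397). Cyp2b10 had 0.394, 2.32 and 0.481 CPM in labelled-null males on HFD against 0.527, 1.46 and 0.634 CPM in WT males. Its groups overlapped there (log2 difference 0.30, 95% interval -1.27 to 1.86), as did those of Cyp2b13 (-0.04, 95% interval -0.97 to 0.90). In females on ND the same genes followed the titles. Cyp2b13 had 0 counts in each of the 3 KO libraries, against 527, 452 and 283 CPM in the WT libraries, and Cyp2b9 had 2.17, 2.69 and 6.87 CPM in KO, against 393, 500 and 456 CPM in WT. The labelled genotype effect on ND in males differed from that in females for Cyp2b9 by 10.4 ± 1.08 on the log2 scale (edgeR adjusted p = 1.37e-05) and, without library 1, by 10.3 ± 1.24 (edgeR adjusted p = 0.000851). It also differed for Cyp2b13 (edgeR adjusted p = 4.34e-07, and 3.6e-09 without library 1). The size of that difference depends on the prior count, because KO females had no count. WT males had only 0.0865 to 0.342 CPM of Cyp2b9 and 1.99 to 3.36 CPM of Cyp2b13. A fall as large as that in females could hardly appear in males, so a large difference between sexes was near fixed in advance for both genes. For Cyp2b10 the difference between sexes was 0.44 (95% interval -1.99 to 2.88).

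Across the transcriptome few genes passed the test. With all libraries, 2 of 14873 genes tested (0.0134%) passed at an adjusted p below 0.05 in edgeR, both higher in males labelled Cyp2b-null. Without library 1, 7 of 15139 genes (0.0462%) passed, of which 6 (0.0396%) were higher and 1 (0.00661%) lower, and both genes of the full comparison were among them. At an unadjusted p below 0.05, 2759 genes passed with all libraries (12.7% of genes higher and 5.84% lower) and 2619 without library 1 (10.1% higher and 7.24% lower). The square root of the common dispersion, a measure of the spread between replicate libraries, was 0.340 with library 1 and 0.219 without it. Of the 14873 genes tested in both, 75.5% kept the sign of their log2 difference, and the median absolute shift was 0.289. The count of passing genes depended on the tool. DESeq2 called 427 genes with all libraries and 435 without library 1, limma voom with sample quality weights called 3111 and 173, and leaving out labelled-null library 2 in place of library 1 gave 724 calls in edgeR.

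**Figure D2:**
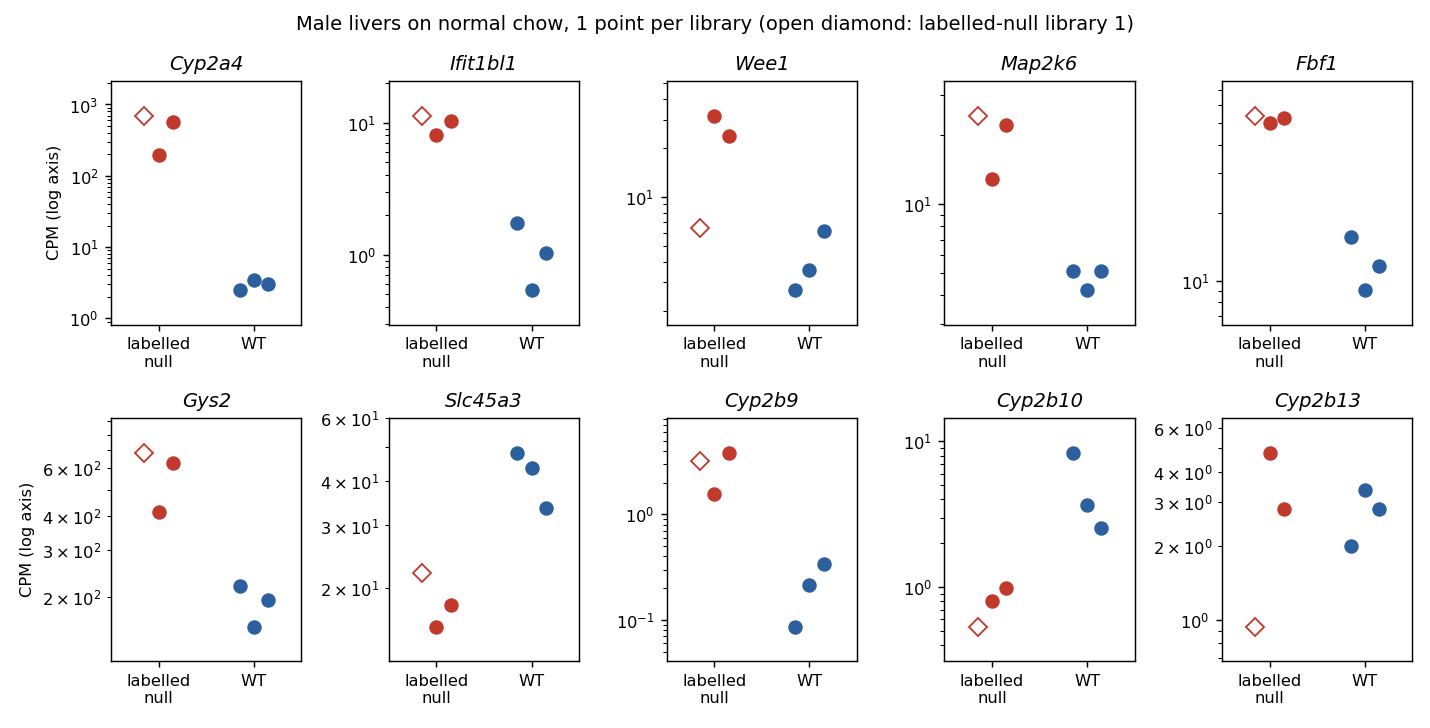
CPM on a log axis of the 7 genes that passed the test without library 1 and of the 3 targeted genes, with labelled-null libraries at the left and WT libraries at the right of each panel. Each point is 1 library and the open diamond is labelled-null library 1. In 9 of the 10 panels the groups do not overlap, while for Cyp2b13 they do.

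Cyp2a4, which encodes a steroid 15-alpha-hydroxylase that is far more abundant in female than in male mouse liver, had the largest rise. It reached 693, 195 and 569 CPM in males labelled Cyp2b-null, against 2.51, 3.46 and 3.08 CPM in WT males. The lowest labelled-null library thus lay far above the highest WT library, and the WT libraries were close to each other while the labelled-null libraries were not. The log2 difference was 7.33 ± 0.68 with all libraries (161-fold, edgeR adjusted p = 0.00226) and 6.99 ± 0.70 without library 1 (127-fold, edgeR adjusted p = 0.0121). The call was lost in edgeR with the compared groups alone with all libraries (adjusted p = 0.151), and without library 1 on leaving out WT library 2 (0.109) or WT library 3 (0.0546) as well. Cyp2a4 is protein coding and lies at 26307169 to 26315088 on chromosome 7, forward strand, and begins 96.508 kb beyond the end of Cyp2b9.

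The promoter of Cyp2a4 is shown beside that of its paralogue Cyp2a5, a coumarin 7-hydroxylase gene, because the pair shares nearly all of its sequence and reads could be assigned to either. Each line gives the 250 bases before the RefSeq start (GRCm38.p6), and capitals mark the 4 bases at which the aligned windows differ (98.39% identity over 249 positions).
Cyp2a4 (chr7:26306942-26307191, forward strand): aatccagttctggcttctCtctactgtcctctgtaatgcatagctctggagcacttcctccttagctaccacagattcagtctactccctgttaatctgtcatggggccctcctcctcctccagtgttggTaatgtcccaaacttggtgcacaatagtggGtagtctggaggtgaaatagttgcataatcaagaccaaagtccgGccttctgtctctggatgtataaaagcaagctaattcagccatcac
Cyp2a5 (chr7:26835089-26835338, forward strand): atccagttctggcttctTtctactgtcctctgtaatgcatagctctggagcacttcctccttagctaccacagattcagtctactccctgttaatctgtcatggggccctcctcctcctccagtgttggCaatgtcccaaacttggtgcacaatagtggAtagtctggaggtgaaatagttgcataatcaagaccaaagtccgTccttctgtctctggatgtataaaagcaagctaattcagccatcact
The longest coding transcripts of the pair agreed at 98.22% of 1739 aligned positions, so the separate counts are uncertain. Cyp2a5 had 1596, 1234 and 898 CPM in the labelled-null libraries, against 393, 599 and 619 CPM in WT, without overlap and without passing the test (log2 difference 1.21 ± 0.35, edgeR adjusted p = 0.206, and 0.99 ± 0.31, edgeR adjusted p = 0.151 without library 1). Of the counts assigned to the pair, not scaled for length, Cyp2a4 held 30.3% (95% Wilson interval 29.6% to 31.0%), 13.6% (13.2% to 14.1%) and 38.8% (38.1% to 39.4%) in the labelled-null libraries, against 0.634% (0.442% to 0.909%), 0.576% (0.408% to 0.811%) and 0.494% (0.357% to 0.683%) in WT, where intervals cover counting error only. The shares do not overlap between groups.

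On HFD, Cyp2a4 lay at 55.4, 31.6 and 115 CPM in males labelled Cyp2b-null, against 6.10, 6.91 and 12.9 CPM in WT males. These groups did not overlap either, but the difference of 2.95 ± 0.55 on the log2 scale did not pass the test over all genes (edgeR adjusted p = 0.511). The difference on ND exceeded that on HFD by 4.38 ± 0.77 (edgeR adjusted p = 0.522) and, without library 1, by 4.05 ± 0.83 (edgeR adjusted p = 0.378), so a dependence on diet did not pass the test. In females on ND, Cyp2a4 had 1227, 1473 and 1144 CPM in KO, against 305, 428 and 496 CPM in WT, a rise of 1.64 ± 0.23 on the log2 scale (edgeR adjusted p = 0.00679). The effect was larger in males than in females by 5.68 ± 0.63 (edgeR adjusted p = 3.17e-05) and, without library 1, by 5.30 ± 0.62 (edgeR adjusted p = 0.000204). Sex goes together with the extraction and library kits. The effects of sex and kit cannot be told apart in this difference, nor in those of the other genes compared between sexes.

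**Figure D3:**
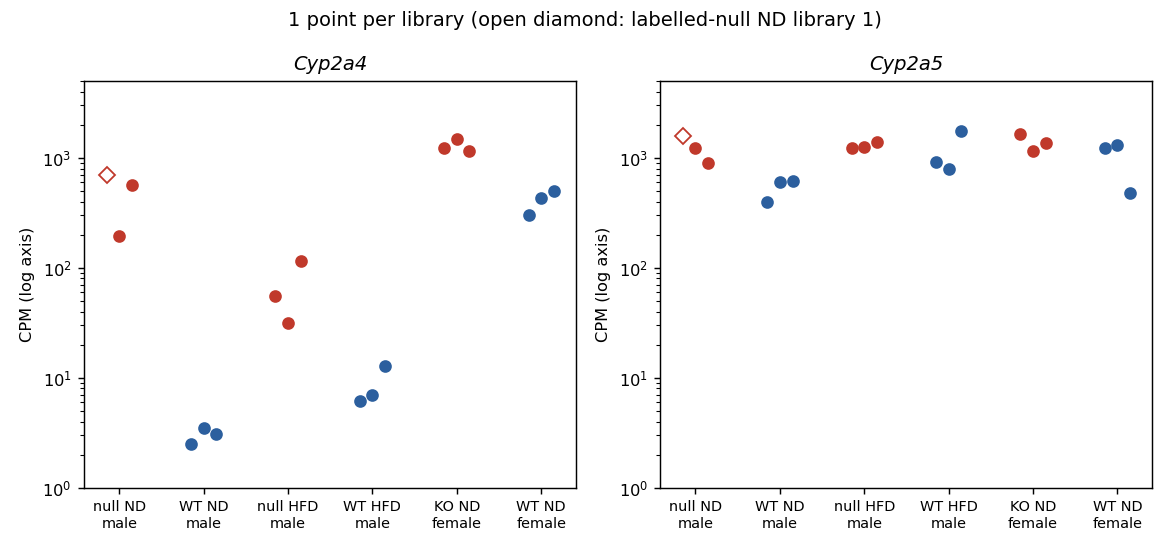
CPM on a log axis of Cyp2a4 (left) and Cyp2a5 (right) in males labelled Cyp2b-null and WT males on ND, the same genotypes on HFD, and KO and WT females on ND, with 1 point per library and labelled-null ND library 1 as an open diamond. Cyp2a4 lies between 195 and 693 CPM in labelled-null ND males and at most at 3.46 CPM in WT ND males.

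Of the 10 listed Cyp2 genes around the Cyp2b cluster, 7 passed the filter on low counts and 1, Cyp2a4, passed the test. With all libraries the 7 had log2 differences of -0.66 to 7.33 (median 1.21, 5 above 0 and 2 below, 2 higher and 0 lower without overlap), and without library 1 of -0.56 to 6.99 (median -0.40, 3 above 0 and 4 below, 2 higher and 1 lower without overlap). The genes higher without overlap were Cyp2a4 and Cyp2a5 in both comparisons. Cyp2f2, a lung and liver P450 that bioactivates naphthalene, had 523, 1091 and 864 CPM in the labelled-null libraries, against 1686, 1026 and 1213 CPM in WT, and Cyp2a12 had 740, 456 and 357 CPM in the labelled-null libraries against 594, 504 and 507 CPM in WT. Both genes were named after their values were seen. Their groups overlapped with all libraries, and without library 1 those of Cyp2a12 no longer did. Cyp2a22 (31.6, 3.17 and 2.81 CPM in the labelled-null libraries, against 4.67, 4.55 and 2.73 CPM in WT) and Cyp2s1 (6.15, 0.699 and 0.262 CPM in the labelled-null libraries, against 0.346, 1.41 and 0.513 CPM in WT) had their highest value in library 1. Cyp2g1 had 1.34, 3.44 and 1.63 CPM in the labelled-null libraries, against 1.64, 2.06 and 1.97 CPM in WT.

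Ifit1bl1 (chromosome 19, 34592891 to 34601956, reverse strand), a member of the Ifit family of interferon-induced genes, was the other gene that passed in both comparisons. It had 11.2, 8.01 and 10.3 CPM in males labelled Cyp2b-null, against 1.73, 0.541 and 1.03 CPM in WT males, and the groups lay well apart. The log2 difference was 3.13 ± 0.40 (edgeR adjusted p = 0.0364) with all libraries and 3.02 ± 0.39 (edgeR adjusted p = 0.0121) without library 1. It passed in 9 of 14 alternatives with all libraries and lost its call with the compared groups alone (adjusted p = 0.502), with a replicate block (0.123), and without labelled-null library 3 (0.162), WT library 2 (0.214) or WT library 3 (0.175) in edgeR. Without library 1 it passed in 9 of 13, and lost its call with the block (0.0814) and without labelled-null library 3 (0.109), WT library 2 (0.108) or WT library 3 (0.0544) as well. Among 37 tested members of an interferon response list 0 passed in edgeR. At an unadjusted p below 0.05, 1 was higher (2.7%) and 6 lower (16.2%) with all libraries, against 12.7% and 5.84% of all genes, and 1 was higher (2.7%) and 5 lower (13.5%) without library 1, against 10.1% and 7.24% of all genes. The median log2 difference was -0.02 with all libraries and 0.12 without library 1.

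Without library 1, 5 further genes passed. Of 13 alternatives, Wee1 passed in 12, Fbf1 in 8, Map2k6 and Slc45a3 in 7 each and Gys2 in 6. Leaving out WT library 2 ended the call of each of the 5 in edgeR (adjusted p = 0.108 for Wee1 and 0.257 for the others), and a replicate block (0.0900 to 0.0902) or leaving out labelled-null library 3 (0.174 to 0.293) ended those of the 4 other than Wee1. Adjusted p lay between 0.0519 and 0.0849 where a call was lost otherwise: on leaving out WT library 1 (Map2k6, Gys2 and Slc45a3), WT library 3 (Map2k6, Fbf1 and Gys2) or labelled-null library 2 (Fbf1 and Slc45a3), with the compared groups alone (Map2k6, Gys2 and Slc45a3) and with RLE scaling (Gys2). Wee1, which encodes the kinase that holds Cdk1 inactive before mitosis and is a known target of the circadian clock in mouse liver, had 6.42, 31.6 and 23.7 CPM in the labelled-null libraries, against 2.68, 3.57 and 6.15 CPM in WT. Library 1 was close to the highest WT library, and the log2 difference was 2.73 ± 0.31 (edgeR adjusted p = 0.00783) without it and 2.32 ± 0.50 (edgeR adjusted p = 0.165) with it. Wee1 lies at 110122046 to 110143286 on chromosome 7, forward strand.

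Gys2, the liver glycogen synthase gene, had 687, 413 and 631 CPM in labelled-null males, against 221, 156 and 196 CPM in WT males. It rose by 1.45 ± 0.23 on the log2 scale without library 1 (edgeR adjusted p = 0.0496), and the value with all libraries was 1.60 ± 0.28 (edgeR adjusted p = 0.122). It was the single member of the glucocorticoid and fasting list to pass among 28 tested. Map2k6, a kinase that activates p38 MAP kinases, had 24.4, 13.0 and 22.2 CPM in labelled-null males, against 5.10, 4.22 and 5.13 CPM in WT males. Its groups did not overlap, and it rose by 1.86 ± 0.30 without library 1 (edgeR adjusted p = 0.0496), with 2.03 ± 0.31 (edgeR adjusted p = 0.109) when all libraries were used.

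Fbf1, which encodes a protein of the transition fibres at the base of cilia, had 53.9, 50.2 and 52.6 CPM in labelled-null males, against 15.6, 9.10 and 11.6 CPM in WT males. The labelled-null libraries differed from each other by less than the WT libraries did. It rose by 2.08 ± 0.32 without library 1 (edgeR adjusted p = 0.0496), against 2.11 ± 0.32 (edgeR adjusted p = 0.109) with all libraries. Slc45a3, a membrane transporter gene, was the single gene that fell, at 22.1, 15.6 and 18.0 CPM in labelled-null males against 48.1, 43.5 and 33.5 CPM in WT males (log2 difference -1.31 ± 0.20, edgeR adjusted p = 0.044 without library 1, and -1.17 ± 0.22, edgeR adjusted p = 0.165 with it).

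Slc45a3 was also the single gene whose labelled genotype effect on ND passed as different from that on HFD. On HFD its order was the opposite, with 41.3, 56.7 and 48.3 CPM in labelled-null males against 25.1, 23.2 and 26.1 CPM in WT males. The effect on ND minus that on HFD was -2.29 ± 0.26 on the log2 scale without library 1 (edgeR adjusted p = 0.00764, 1 of 15139 genes, 1168 at an unadjusted p below 0.05) and -2.15 ± 0.31 with it (edgeR adjusted p = 0.196). With all libraries edgeR called 0 genes in this test, with 691 at an unadjusted p below 0.05, and DESeq2 called 18. Of 15043 genes, 5 (0.0332%) had an ND effect in males that differed from that in females with all libraries, and the same 5 of 13415 (0.0373%) did without library 1. Beside Cyp2a4, Cyp2b9 and Cyp2b13 they were Prom1, a cholangiocyte and progenitor membrane glycoprotein gene, and the predicted gene Gm15343, which was named after its values were seen. Prom1 had 4.95, 2.10 and 1.18 CPM in labelled-null males against 1.21, 1.41 and 1.45 CPM in WT males, and 1.30, 1.35 and 1.62 CPM in KO females against 10.7, 13.5 and 20.2 CPM in WT females. In females it fell by 3.33 ± 0.46 on the log2 scale (edgeR adjusted p = 0.00679), and in males the groups overlapped. Gm15343 had 38.8, 27.1 and 47.0 CPM in labelled-null males against 23.8, 20.2 and 19.7 CPM in WT males, and 4.78, 4.04 and 3.64 CPM in KO females against 17.1, 13.5 and 12.2 CPM in WT females.

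Genes with the smallest p that did not pass are given as values. Ppara, the nuclear receptor that drives fatty acid oxidation, had 643, 525 and 431 CPM in labelled-null males, against 243, 241 and 221 CPM in WT males, without overlap (log2 difference 1.18 ± 0.24, edgeR adjusted p = 0.165, and 1.03 ± 0.18, edgeR adjusted p = 0.066 without library 1). Elovl3, a male-biased elongase of very long chain fatty acids, had 30.5, 73.9 and 31.6 CPM in labelled-null males against 494, 485 and 193 CPM in WT males (-3.10 ± 0.53, edgeR adjusted p = 0.122, and -2.89 ± 0.61, edgeR adjusted p = 0.0855 without library 1). The groups of Elovl3 did not overlap, and WT library 3 lay below the other WT libraries. Lrp4, a low density lipoprotein receptor family member, had 77.7, 46.9 and 56.6 CPM in labelled-null males against 16.6, 15.6 and 22.5 CPM in WT males (1.73 ± 0.30, edgeR adjusted p = 0.122, with all libraries).

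Tubb2a, a beta-tubulin gene, had 23.1, 18.3 and 13.3 CPM in labelled-null males against 124, 120 and 52.9 CPM in WT males (-2.64 ± 0.58, edgeR adjusted p = 0.0963 without library 1). Chka, the choline kinase alpha gene of phosphatidylcholine synthesis, had 73.1, 23.3 and 33.9 CPM in labelled-null males against 92.8, 78.6 and 66.2 CPM in WT males. Here library 1 lay among the WT libraries, and the log2 difference was -1.47 ± 0.24 without it (edgeR adjusted p = 0.0601) and -0.87 ± 0.36 with it (edgeR adjusted p = 0.244). Pdpr, a regulatory subunit of pyruvate dehydrogenase phosphatase, had 11.9, 61.4 and 54.9 CPM in labelled-null males against 31.9, 30.8 and 32.7 CPM in WT males, so that library 1 lay below and the other labelled-null libraries above WT. The other genes in this class that were higher were Zfp40, Nat8f4, Ctse and Wipf3, with log2 differences without library 1 from 0.97 (Nat8f4) to 1.86 (Ctse). Those that were lower were Abtb2, Rbm14, Pdlim1, Eps8l2, P4ha1, Gfod2, LOC101056219, Manf, Arntl, Sdf2l1 and Hsph1. The last 4 are given with their groups, and the other 7 had log2 differences without library 1 from -1.33 (Abtb2) to -0.91 (Pdlim1).

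Gene lists are described by how many members had groups that did not overlap, beside the same share over all genes tested. With all libraries 10.3% of genes were higher without overlap and 12.5% lower, and without library 1, where 2 libraries face 3, 20.4% were higher and 19.7% lower. At an unadjusted p below 0.05 in edgeR, 12.7% of genes were higher and 5.84% lower with all libraries, and 10.1% and 7.24% without library 1. The median log2 difference of all genes was 0.06 with all libraries and 0.02 without library 1. Apart from Cyp2a4 and Gys2, no member of any pathway list passed the test over all genes, so the counts below describe these libraries. Members named as examples were chosen after their values were seen, as those with the smallest p without library 1 or with a well-known role.

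**Figure D4:**
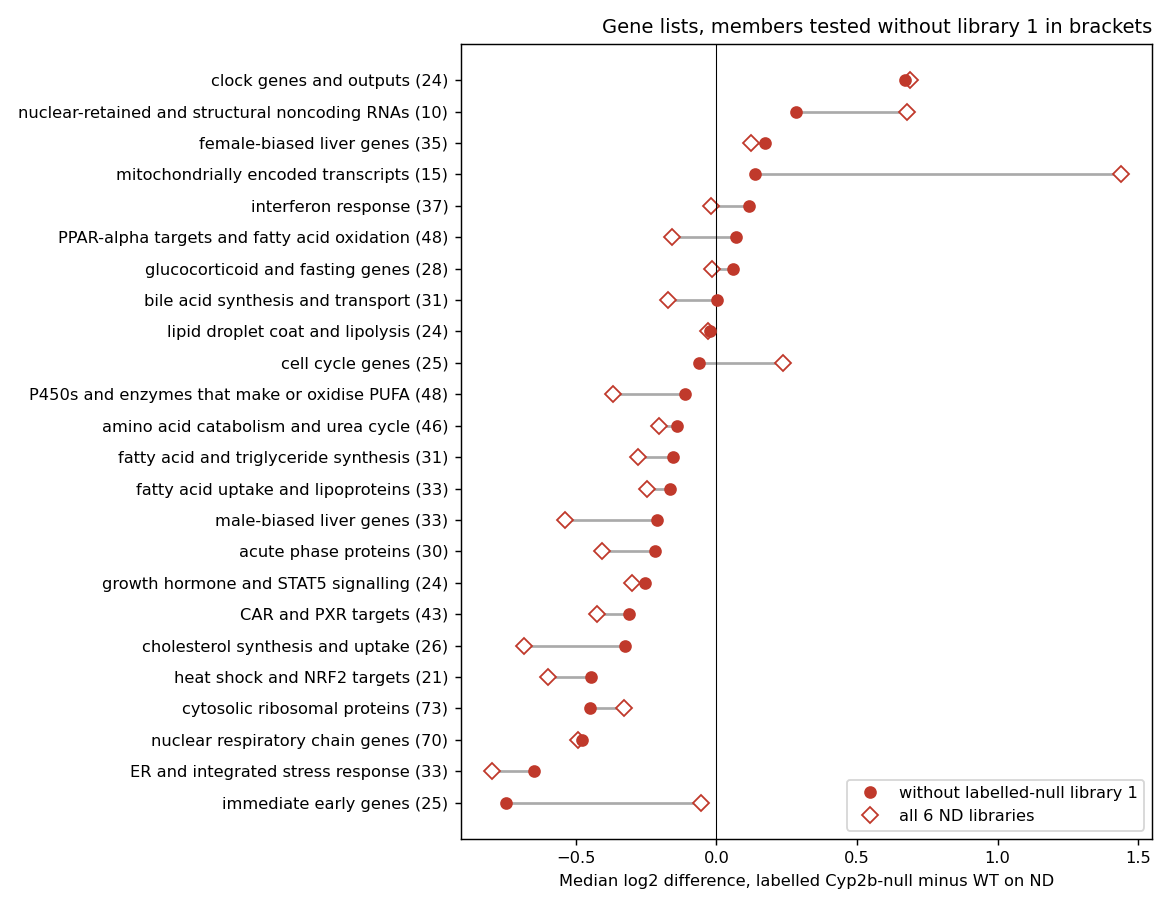
Median log2 difference, labelled Cyp2b-null minus WT on ND, of each gene list with at least 10 tested members, with all 6 libraries (open diamonds) and without labelled-null library 1 (filled circles). Clock genes lie at 0.69 and 0.67, the endoplasmic reticulum list at -0.80 and -0.65, and mitochondrially encoded transcripts at 1.44 and 0.14.

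The circadian clock in liver is a feedback loop in which Arntl (Bmal1) and Clock activate the Per and Cry repressors and the output factors Dbp and Tef, all with daily rhythms. Of 24 clock genes and outputs tested without library 1, 11 were higher (45.8%) and 2 lower without overlap, and with all libraries 7 of 23 were higher (30.4%) and 2 lower. The shares of all genes higher without overlap were 20.4% without library 1 and 10.3% with all libraries. The members lower without overlap were Arntl and Clock in both comparisons, and 0 members passed the test in edgeR. At an unadjusted p below 0.05, 11 were higher (47.8%) and 2 lower (8.7%), and 9 (37.5%) and 3 (12.5%) without library 1. Arntl had 2.68, 2.04 and 1.70 CPM in labelled-null males, against 17.4, 13.6 and 4.53 CPM in WT males (log2 difference -2.65 ± 0.50, edgeR adjusted p = 0.066 without library 1), and Clock had 9.10, 33.5 and 32.4 CPM in labelled-null males against 54.2, 52.9 and 44.3 CPM in WT males (-0.62 ± 0.18, edgeR adjusted p = 0.133). Among the outputs, Dbp had 709, 201 and 266 CPM in labelled-null males against 34.4, 76.8 and 143 CPM in WT males (1.46 ± 0.50), and Tef had 561, 342 and 458 CPM in labelled-null males against 115, 149 and 230 CPM in WT males (1.28 ± 0.28, edgeR adjusted p = 0.0771). None of these groups overlapped.

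Among the repressors, Per3 had 15.8, 17.4 and 38.4 CPM in labelled-null males against 2.16, 5.85 and 8.89 CPM in WT males (2.30 ± 0.58, edgeR adjusted p = 0.118 without library 1). Cry2 had 56.9, 57.8 and 84.3 CPM in labelled-null males against 35.2, 38.4 and 36.7 CPM in WT males (0.95 ± 0.19, edgeR adjusted p = 0.066). Per1 overlapped, with 118, 32.9 and 77.3 CPM in labelled-null males against 7.35, 13.6 and 38.6 CPM in WT males, as did Nr1d1, which encodes the repressor REV-ERB alpha, with 333, 118 and 155 CPM in labelled-null males against 200, 156 and 153 CPM in WT males. WT libraries differed among themselves: WT library 3 was the highest of the WT libraries for Per1, Per3, Dbp and Tef and the lowest for Arntl. The labels give no hour of collection, and the part of collection time in these differences was not tested.

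Chaperones of the endoplasmic reticulum (ER), which fold secreted proteins and are induced by the unfolded protein response, were lower in labelled-null males. Of 33 members of the ER and integrated stress response list, 18 were lower (54.5%) and 1 higher without overlap with all libraries, and 21 lower (63.6%) and 2 higher without library 1, while 0 passed the test in edgeR. Among all genes, 12.5% were lower without overlap in the full comparison and 19.7% without library 1. At an unadjusted p below 0.05, 1 was higher (3.03%) and 16 lower (48.5%), and 0 and 17 (51.5%) without library 1. Hspa5, which encodes the ER chaperone BiP, had 126, 508 and 506 CPM in labelled-null males against 1106, 1836 and 2257 CPM in WT males (log2 difference -2.19 ± 0.54, edgeR adjusted p = 0.184, and -1.77 ± 0.41, edgeR adjusted p = 0.0855 without library 1). Creld2, an ER stress-inducible protein gene, had 27.0, 16.1 and 21.9 CPM in labelled-null males against 67.4, 121 and 207 CPM in WT males (-2.80 ± 0.73, edgeR adjusted p = 0.133 without library 1). Manf, a secreted ER stress protein gene, had 28.0, 42.2 and 45.4 CPM in labelled-null males against 144, 213 and 273 CPM in WT males (-2.26 ± 0.49, edgeR adjusted p = 0.0855 without library 1). In all of these the groups lay apart, and WT library 1 was the lowest of the WT libraries.

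Hyou1, an ER chaperone of the Hsp70 family, had 40.4, 98.4 and 127 CPM in labelled-null males against 274, 386 and 497 CPM in WT males. Sdf2l1, an ER co-chaperone gene, had 3.61, 6.99 and 9.87 CPM in labelled-null males against 29.1, 54.1 and 63.8 CPM in WT males (-2.54 ± 0.67, edgeR adjusted p = 0.129 without library 1). In the integrated stress response branch the members varied. Atf4, the transcription factor of that branch, had 324, 93.5 and 115 CPM in labelled-null males against 122, 109 and 134 CPM in WT males. Ddit3, its target that encodes CHOP, had 39.5, 7.58 and 12.4 CPM in labelled-null males against 13.5, 16.2 and 32.5 CPM in WT males, so that library 1 was the highest of the 6 for both, and without it the groups of Ddit3 did not overlap (-1.06 ± 0.50, edgeR adjusted p = 0.299). Atf3, a stress-induced repressor gene that is also on the immediate early list, had the lowest log2 difference of the list without library 1 (-4.26 ± 2.67, edgeR adjusted p = 0.446), with overlapping groups at 28.5, 2.74 and 0.850 CPM in labelled-null males against 0.951, 63.9 and 41.6 CPM in WT males. Trib3, a target of ATF4 and CHOP, had 22.2, 9.46 and 12.3 CPM in labelled-null males against 9.43, 4.01 and 6.84 CPM in WT males (0.67 ± 0.37, edgeR adjusted p = 0.366 without library 1).

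The promoters of Hspa5 and Creld2 are shown because both hold the ER stress response element (ERSE), to which ATF6 binds together with NF-Y. Each line is the 250 bases before the RefSeq start (GRCm38.p6), with the element in capitals. It begins at position -65 from the start on the forward strand in Hspa5 and at -126 in Creld2, where it reads on the opposite strand.
Hspa5 (chr2:34771840-34772089, forward strand): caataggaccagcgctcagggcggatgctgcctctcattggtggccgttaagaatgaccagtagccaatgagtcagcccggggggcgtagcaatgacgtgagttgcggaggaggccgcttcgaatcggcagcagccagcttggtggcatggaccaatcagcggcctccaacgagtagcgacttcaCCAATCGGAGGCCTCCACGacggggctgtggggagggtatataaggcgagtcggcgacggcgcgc
Creld2 (chr15:88819396-88819645, forward strand): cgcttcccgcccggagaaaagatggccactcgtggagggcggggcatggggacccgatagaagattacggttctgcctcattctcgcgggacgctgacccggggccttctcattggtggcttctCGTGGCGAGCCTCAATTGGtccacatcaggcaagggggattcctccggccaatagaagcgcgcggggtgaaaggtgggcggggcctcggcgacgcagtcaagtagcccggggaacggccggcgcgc
The letters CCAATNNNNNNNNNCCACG, searched on both strands, were found in 35 of 27025 genes with such a window (0.13%) and in 7 of the 31 list members with one (22.6%), namely Calr, Canx, Creld2, Dnajc3, Hsp90b1, Hspa5 and Pdia6. The list holds well-known ERSE genes, so this share describes the list. The clock E-box CACGTG, whose letters can overlap the last bases of an ERSE, was in 5 of 19 clock genes with a window (26.3%, namely Bhlhe41, Ciart, Cry1, Per1 and Tef), against 6.86% of all genes. The D-box letters TTATGNAA were in 3 of the 19 (15.8%, namely Noct, Per1 and Per3), against 3.63% of all genes. As with the ERSE, the E-box and D-box shares describe the list, and their part in the expression differences was not tested.

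**Figure D5:**
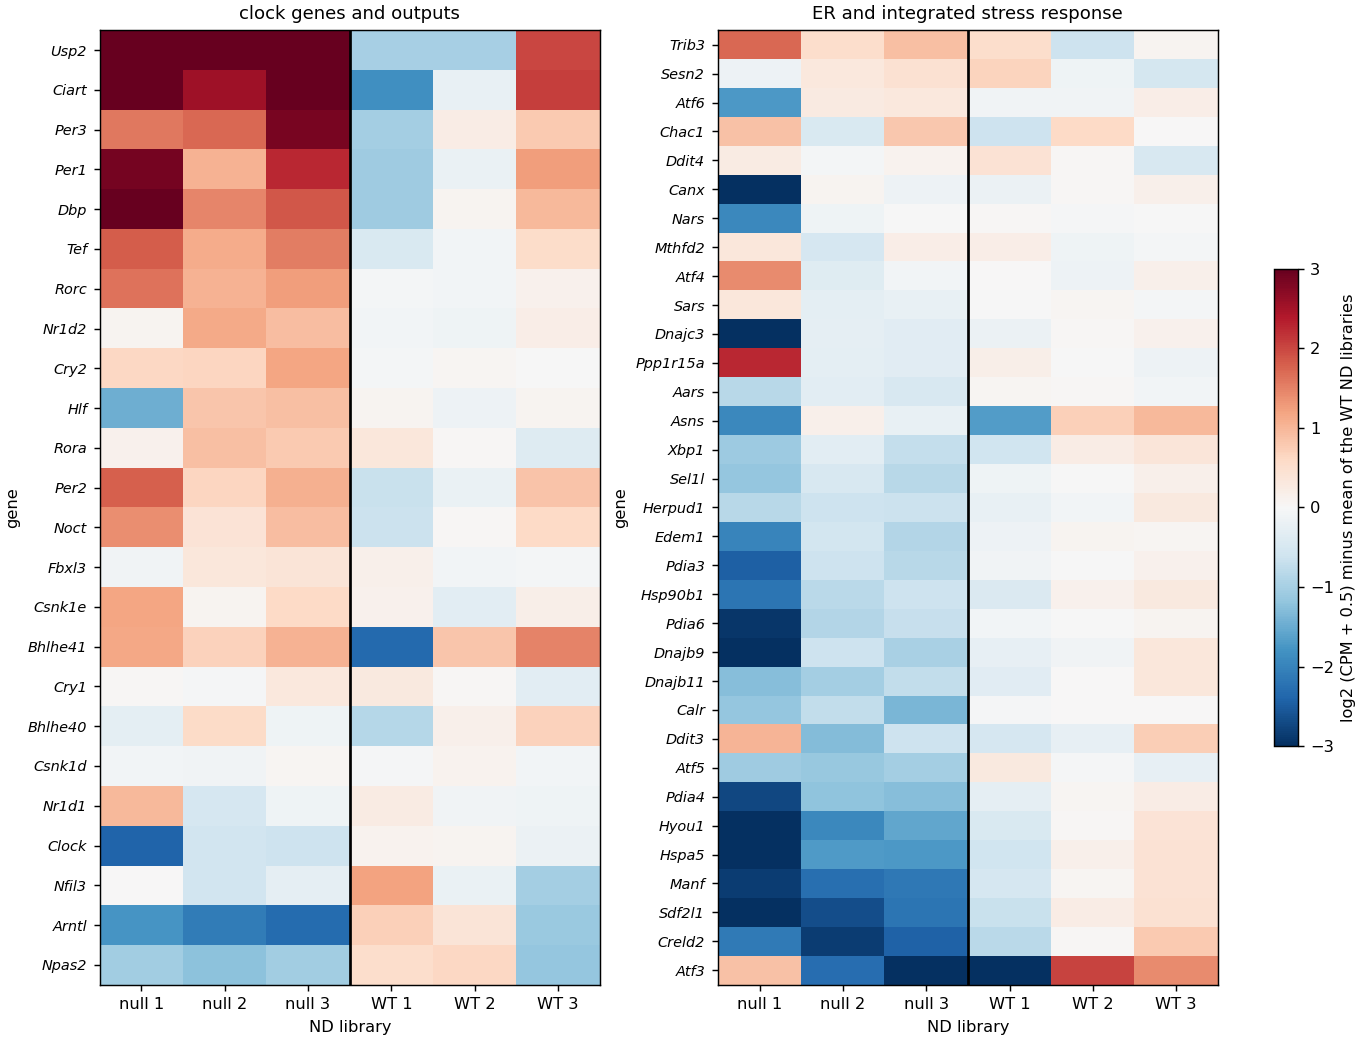
Each row is a gene of the clock list (left) or of the ER and integrated stress response list (right), and each column 1 ND library, labelled-null libraries first. Colour gives log2 (CPM + 0.5) minus the mean of the WT libraries, limited to 3 in each direction; the rows for Hspa5, Manf and Creld2 are below the WT mean in the 3 labelled-null libraries, and the row for Arntl is as well.

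Cytosolic heat shock and NRF2 target genes were also lower, with 12 of 21 lower (57.1%) and 1 higher without overlap with all libraries, and 13 lower (61.9%) and 1 higher without library 1 (median log2 difference -0.60 and -0.44). The shares of all genes lower without overlap were 12.5% with all libraries and 19.7% without library 1. Hsph1, a cytosolic Hsp110 chaperone, had 12.4, 35.6 and 36.5 CPM in labelled-null males against 77.8, 112 and 146 CPM in WT males (-1.64 ± 0.29, edgeR adjusted p = 0.066 without library 1). Hspa8, the constitutive cytosolic Hsp70, had 296, 302 and 181 CPM in labelled-null males against 494, 620 and 761 CPM in WT males (-1.37 ± 0.31, edgeR adjusted p = 0.0791). Both genes were lower in each labelled-null library than in any WT library.

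Nuclear-encoded respiratory chain genes and cytosolic ribosomal protein genes had medians below 0 in both comparisons, and 0 of them passed the test in edgeR. The log2 differences of the respiratory chain genes ran from -1.11 to 0.71 with all libraries and from -1.04 to 0.41 without library 1, and those of the ribosomal protein genes from -1.10 to 0.83 and from -1.16 to 0.37. At an unadjusted p below 0.05, 20 respiratory chain genes were lower with all libraries (28.6%) and 38 without library 1 (54.3%), against 5.84% and 7.24% of all genes. Ribosomal protein genes had 18 (24.7%) and 25 (34.2%) lower, and 0 genes of either list were higher. Without library 1, 60 of 70 respiratory chain genes were lower (85.7%) and 1 higher without overlap (median log2 difference -0.48), and with all libraries 44 were lower and 1 higher (-0.49). Of 73 ribosomal protein genes, 50 were lower (68.5%) and 1 higher without library 1 (-0.45), and 28 were lower and 0 higher with all libraries (-0.33). Cox8a, a subunit of cytochrome c oxidase, had 42.5, 149 and 125 CPM in labelled-null males against 205, 204 and 209 CPM in WT males (-0.59 ± 0.19, edgeR adjusted p = 0.168 without library 1). Rps20, a protein of the small ribosomal subunit, had 42.3, 62.2 and 54.6 CPM in labelled-null males against 85.9, 91.4 and 102 CPM in WT males (-0.67 ± 0.21, edgeR adjusted p = 0.154 without library 1).

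With all libraries, all 15 mitochondrially encoded transcripts had log2 differences above 0, as did 53.7% of all genes, and their median was 1.44. Only 1 of the 15 (6.67%) was higher without overlap, against 10.3% of all genes. Without library 1 the median was 0.14, and 11 of the 15 were above 0, as were 52.1% of all genes. There, too, 1 (6.67%) was higher without overlap, against 20.4% of all genes. Library 1 was set apart for its mitochondrial share. The high median with it and the lower median without it were thus fixed in advance and are not separate results. Hepatocyte markers lay on the same side as the nuclear-encoded lists: 9 of 12 were lower without overlap without library 1 (median -0.59), and 8 of 12 with all libraries (-0.64). The shares of all genes were 19.7% and 12.5%.

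The series is about polyunsaturated fatty acids and hepatic lipids, whose genes are given beside the shares of all genes, 20.4% higher and 19.7% lower without library 1. Of 48 genes that encode P450s and enzymes that make or oxidise polyunsaturated fatty acids, 3 were higher and 10 lower without overlap without library 1 (6.25% and 20.8%), and 1 and 10 with all libraries. Cyp2j9, an arachidonic acid epoxygenase family member, had 297, 25.3 and 55.6 CPM in labelled-null males against 24, 17.1 and 19.0 CPM in WT males, so its size rested on library 1 (2.65 ± 0.68 with it and 1.01 ± 0.28, edgeR adjusted p = 0.121, without it). The desaturase gene Fads2 had 49.0, 588 and 442 CPM in labelled-null males against 282, 393 and 465 CPM in WT males, and Elovl5, which elongates polyunsaturated fatty acids, had 40.0, 387 and 254 CPM in labelled-null males against 667, 506 and 396 CPM in WT males. In Fads2 the groups overlapped, and in Elovl5 they did not.

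Of 48 genes of fatty acid oxidation or under PPAR-alpha, 12 were higher and 8 lower without overlap without library 1 (25% and 16.7%), and 3 and 7 with all libraries. Cpt1a, the carnitine palmitoyltransferase that admits fatty acids to mitochondria, had 134, 559 and 479 CPM in labelled-null males against 310, 298 and 366 CPM in WT males, where library 1 lay below and the others above WT (0.68 ± 0.18, edgeR adjusted p = 0.109 without library 1). Of 31 genes of fatty acid and triglyceride synthesis, 3 were higher and 11 lower without library 1 (9.68% and 35.5%), and 2 and 8 with all libraries. At an unadjusted p below 0.05 in edgeR, 1 was higher and 1 lower without library 1 (3.23% each), against 10.1% and 7.24% of all genes. With all libraries 1 was higher (3.23%) and 3 lower (9.68%), against 12.7% and 5.84%. The larger share of lower genes without library 1 was thus not seen by p. Scd1, the stearoyl-CoA desaturase, had 893, 7687 and 4217 CPM in labelled-null males against 9379, 10164 and 7921 CPM in WT males, without overlap and with a wide interval without library 1 (log2 difference -0.62, 95% interval -2.47 to 1.23). Of 33 genes of fatty acid uptake and lipoproteins, 2 were higher and 12 lower without library 1 (6.06% and 36.4%), and 2 and 6 with all libraries. Of 24 genes of the lipid droplet coat and lipolysis, 4 were higher and 6 lower without library 1 (16.7% and 25%), and 3 and 2 with all libraries.

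Of 26 genes of cholesterol synthesis and uptake, 10 were lower (38.5%) and 0 higher without library 1 (median -0.32), and 9 lower and 0 higher with all libraries (-0.68). The shares of all genes lower without overlap were 19.7% and 12.5%. At an unadjusted p below 0.05 in edgeR, 3 were lower (11.5%) without library 1 and 7 (26.9%) with all libraries, against 7.24% and 5.84% of all genes, and 0 were higher. Of 31 genes of bile acid synthesis and transport, 6 were higher and 5 lower without library 1 (19.4% and 16.1%), and 4 and 4 with all libraries. Abcg5, which pairs with Abcg8 to export sterols into bile, had 639, 158 and 262 CPM in labelled-null males against 102, 83.5 and 77.9 CPM in WT males (1.26 ± 0.24, edgeR adjusted p = 0.066 without library 1), and Abcg8 had 213, 160 and 204 CPM in labelled-null males against 116, 92.0 and 85.1 CPM in WT males (0.90 ± 0.19, edgeR adjusted p = 0.0744). Both partners were higher in each labelled-null library than in any WT library.

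Of 43 targets of CAR and PXR, the nuclear receptors that induce drug metabolism, 9 were higher and 11 lower without library 1 (20.9% and 25.6%), and 5 and 9 with all libraries. Without library 1 the shares of all genes were 20.4% and 19.7%. Nr1i3, which encodes CAR, had 1235, 366 and 672 CPM in labelled-null males against 204, 133 and 175 CPM in WT males, without overlap (1.60 ± 0.49, edgeR adjusted p = 0.157 without library 1). Cyp3a11, a PXR target, had 295, 3431 and 1693 CPM in labelled-null males against 4717, 3626 and 3491 CPM in WT males.

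Sex-biased liver genes, which differ between male and female liver under growth hormone, are set beside the shares of all genes whose groups did not overlap (10.3% higher and 12.5% lower with all libraries, 20.4% and 19.7% without library 1). Of 35 female-biased genes, 6 were higher (17.1%) and 7 lower (20%) without library 1 (median 0.17), and 4 (11.4%) and 6 (17.1%) with all libraries (0.12). With 35 genes tested, these shares are too close to those of all genes to be read as a difference. Cux2, a female-specific liver transcription factor gene, had 5.75, 0.430 and 0.719 CPM in labelled-null males against 0.173, 0.108 and 0.427 CPM in WT males. Its size rested on library 1, and the other values lay near the floor. Of 33 male-biased genes, 4 were higher (12.1%) and 5 lower (15.2%) without library 1 (median -0.21), and 2 (6.06%) and 4 (12.1%) with all libraries (-0.54). These shares rest on few genes and are not read as a difference from all genes either. Hsd3b5, a male-specific hydroxysteroid dehydrogenase gene, had 38.3, 226 and 175 CPM in labelled-null males against 184, 311 and 326 CPM in WT males.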

How the data were processed

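Groups were taken from the sample titles. Male libraries were made with the TruSeq Total RNA kit after RNeasy Plus Universal extraction, and female ones with NEB Next Ultra RNA after Trizol, per the labels' protocols. The authors deposited unnormalized read counts for each gene symbol. Per the submitters' processing notes GSNAP, Subread, Trimmomatic, FastQC and edgeR were used, with build GRCm38.p5. Whether counting used strand is not given in the sources used here.

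The male table held 46093 symbols, with 1806 duplicated symbols summed. A further 25 had been turned into dates (at most 0.16% of a library) and were not tested. Libraries of a group always differed by more than counting noise (chi-square over its degrees of freedom of at least 10.9). Male totals ran from 8282510 to 20176050 counts. The 12 male libraries (11 without library 1) were fitted with edgeR 4.0.16 (R 4.3.3): 1 term per group, TMM scaling, low-count filter by group, robust quasi-likelihood test, Benjamini-Hochberg adjustment over all genes tested. All 24 libraries were fitted together for the difference between sexes. Levels (CPM) are counts scaled to TMM-adjusted library totals. The scripts were tested on simulated data.

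Named were the targeted genes and, in each comparison, up to 10 passing genes each way whose libraries did not overlap, an average log2 CPM not under 1 and no predicted name, filled up by smallest p. The comparison, lists and rule were chosen with earlier results of these data known. Sequences are RefSeq windows (GRCm38.p6) and transcript identity is from GENCODE M21. Alternatives were RLE scaling, no low-count filter, DESeq2 1.42.0, limma 3.58.1 voom with sample quality weights, the compared groups alone, a replicate block, the first of duplicated symbols, no mitochondrially encoded transcripts, and each library left out.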

Additional observations from a re-analysis of the deposited data

Results flagged for a closer look

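Slc45a3 had a labelled genotype effect on ND that differed from that on HFD by -2.29 on the log2 scale without labelled-null library 1, by a test of that difference itself. The groups lay in opposite orders on the 2 diets. The labelled genotype effect on ND also differed between males and females, by a test of that difference, for Cyp2a4 (5.68 with all libraries and 5.30 without library 1), Cyp2b13 (14.9 and 15.3), Cyp2b9 (10.4 and 10.3) and Prom1 (4.32 and 3.62). On ND, Cyp2b9 was higher in males labelled Cyp2b-null and lower in KO females than in WT. Each value is the effect in males minus that in females on the log2 scale. The size for Cyp2b13 depends on the prior count of the fit, since KO females had 0 counts. For Cyp2b9 and Cyp2b13 a large difference between sexes was near fixed in advance, since WT males had little of either transcript. Prom1 was also low in WT males, at 1.21 to 1.45 CPM. In all these differences between males and females, the effects of sex and of the extraction and library kits cannot be told apart.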

How the results depend on the processing

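Calls between males labelled Cyp2b-null and WT males on ND numbered 2 with all libraries and 7 without library 1. Without the low-count filter they numbered 35 and 1039, in DESeq2 427 and 435, in voom with sample quality weights 3111 and 173, with the compared groups alone 0 and 18, and leaving out 1 library at a time they ranged from 1 to 724 and from 0 to 40. With the compared groups alone, 4 of the 18 were among the 7. RLE scaling gave 2 and 6 calls, and leaving out mitochondrially encoded transcripts or taking the first of duplicated symbols gave 2 and 7. For the ND effect minus the HFD effect, calls numbered 0 and 1, with 0 and 353 without the filter, 18 and 57 in DESeq2, and 0 to 1 and 0 to 5 leaving out 1 library. For males minus females, 5 and 5 became 215 and 208 without the filter, 42 and 27 in DESeq2, and 3 to 219 and 3 to 9 leaving out 1 library. The cause of these shifts was not tested.

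With all libraries, leaving out labelled-null library 2 gave 724 calls, and leaving out labelled-null library 3 or WT library 2 gave 1. Without library 1, leaving out WT library 2 as well gave 0 calls, leaving out labelled-null library 2 gave 40, and then labelled-null library 3 stood alone and was assumed to vary like the other groups. Leaving out labelled-null library 3 gave 3 calls and leaving out WT library 1 gave 12. With all libraries, the log2 difference of Cyp2b13 ranged from -0.49 (without labelled-null library 2) to 0.49 (without labelled-null library 1) when 1 library was left out, and it was -0.07 without WT library 1. The sample weight of library 1 was 0.0676, against 0.531 to 3.41 in the other male libraries.

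Replicate numbers come from titles and nothing marks them as shared batches. Same-numbered ND libraries had correlations of deviations of 0.11, 0.108 and -0.0226, so the numbers were not taken to pair the libraries. With the replicate number as a block, calls numbered 1 with all libraries and 2 without library 1. Depth limits the precision of Cyp2b9, with 1 to 4 counts in WT libraries.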
